A study of Mus musculus with 8 samples.

Results

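The tachykinin system of mouse islets was described from 6 genes, the peptide precursors Tac1, Tac2 and Tac4 and the receptors Tacr1, Tacr2 and Tacr3. They were taken by symbol from a count table of 32531 gene symbols, in which each had 1 row, and 3 of the 6 (Tac1, Tacr1 and Tacr3) reached 10 counts in 4 or more of the 8 libraries, the filter used for testing. The family was chosen by the measured rise of Tacr1 in these same libraries, so the levels of its members are given as a description without a test.

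Tachykinins are short neuropeptides that end in a shared amidated motif and are released mainly from sensory and enteric neurons. Tac1 encodes substance P and neurokinin A, Tac2 encodes neurokinin B, and Tac4 encodes hemokinin-1. Their receptors are coupled through Gq proteins to phospholipase C, calcium release and protein kinase C. Substance P prefers the NK1 receptor (Tacr1), neurokinin A the NK2 receptor (Tacr2) and neurokinin B the NK3 receptor (Tacr3). In the pancreas, nerve fibers that carry substance P reach islets, ducts and vessels.

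Bulk RNA was sequenced from islets of 4 β-tetO-NICD mice and 4 controls. Both groups were RIP-Cre+ and Rosa26-rtTA+ and had drunk doxycycline (Dox) for 8 weeks, on a mixed background of C57BL/6J, 129X1/SvJ and BALB/c, and they differed in being tetO_NICD+ or tetO_NICD-. RIP is the rat insulin promoter, so Cre permits rtTA, and through it the Notch1 intracellular domain (NICD), in β cells, while α, δ, vascular and nerve cells of the same islets contribute RNA without being targeted. Animal ages are not in the labels. The 4 β-tetO-NICD libraries carry the numbers 1, 2, 4 and 5, and libraries 4 and 5 are assigned to the group but to no particular mouse. Values are CPM, the counts of a gene relative to the effective library size of edgeR, on the usual scale that makes libraries of different depth comparable.

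Library totals lay between 21701223 and 26413146 counts, so that a floor of 3 counts, below which a gene is not distinguished from absence, stood at 0.0996 to 0.151 CPM. That floor covers counting error only. Notch1, whose intracellular part the transgene encodes, was at 56.9 ± 10.7 CPM (n = 4, SD) in controls and 1030 ± 331 CPM (n = 4, SD) in β-tetO-NICD islets (log2 change 4.18, SE 0.30, adjusted p = 0.000102), and its target Hes1 went from 7.24 ± 1.03 to 44.3 ± 10.6 CPM (n = 4 each, SD; log2 change 2.61, SE 0.21, adjusted p = 0.00014). Adjusted p values measure the spread between these 8 libraries. Islet hormone and granule genes took 193000 to 262000 CPM over the controls and 150000 to 266000 CPM over the β-tetO-NICD libraries. Within this sum single hormones differed in direction, with Gcg of α cells at 22650 ± 12900 and 61250 ± 6190 CPM (n = 4 each, SD; no overlap, log2 change 1.44, adjusted p = 0.0622) and Sst of δ cells at 3659 ± 1790 and 10050 ± 3830 CPM (log2 change 1.46, adjusted p = 0.0619). Ppy, the hormone of PP cells, was at 6209 ± 3060 and 3619 ± 2090 CPM (log2 change −0.78, adjusted p = 0.254). The β cell genes Ins1, Ins2 and Iapp had log2 changes of −0.65, −0.56 and −0.59 (adjusted p between 0.206 and 0.295). The part of these shifts in the tachykinin and pathway results was not tested. The Y-linked gene Eif2s3y reached 1300 counts or more in 3 libraries (controls 2 and 4, and library 5 of the β-tetO-NICD group) and did not exceed 1 count elsewhere, whereas the methods give males for gene expression. In a bulk sample, fewer cells of a type and less RNA per cell cannot be told apart.

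Among the precursors, Tac1 was the only one with more than 2 counts in any library. All counts in the table are sums over a gene's transcripts, so the share of Tac1 RNA that encodes each peptide is not known. The coding stretches of the tachykinin peptides are shown because the family is defined by them. They were read from GENCODE M21 transcripts on GRCm38, each covers the last 10 codons of its peptide within 1 coding exon on the plus strand, and capitals mark the last 5 codons, which encode the shared end of the peptides. The stretches are complete for neurokinin A and neurokinin B, while substance P and hemokinin-1 begin 1 codon earlier.
substance P (Tac1, chr6:7556735-7556764): cccaagcctcagcagTTCTTTGGATTAATG
neurokinin A (Tac1, chr6:7559101-7559130): cataaaacagattccTTTGTTGGACTAATG
neurokinin B (Tac2, chr10:127729116-127729145): gacatgcacgacttcTTTGTGGGACTTATG
hemokinin-1 (Tac4, chr11:95265263-95265292): agcaggactcgccagTTCTATGGTCTGATG
The stretches of substance P and hemokinin-1 shared 20 of 30 bases and those of neurokinin A and neurokinin B 19 of 30. Over the 15 bases in capitals, substance P matched neurokinin A at 12 and neurokinin A matched neurokinin B at 13. The substance P stretch lies in 3 of the 4 annotated coding Tac1 transcripts and the neurokinin A stretch in 2 of the 4.

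Tac1 lies on chromosome 6 of GRCm38 from 7554879 to 7565834 on the plus strand (ENSMUSG00000061762.12, 5 annotated transcripts). Controls 1 to 4 had 153, 206, 145 and 408 Tac1 counts, and β-tetO-NICD libraries 1, 2, 4 and 5 had 147, 249, 359 and 223. In CPM the controls were at 7.06, 8.70, 5.74 and 16.6 and the β-tetO-NICD libraries at 6.99, 10.9, 11.9 and 11.2. Control 4 was the highest library and the groups overlapped. The means were 9.51 ± 4.85 CPM (n = 4, SD) and 10.2 ± 2.22 CPM (n = 4, SD), a log2 difference of 0.11 (SE 0.33). It turned on control 4, since it was 0.53 (SE 0.25) without that library, and it was 0.64 (SE 0.3) in the 5 libraries with at most 1 Eif2s3y count. The precursor of substance P was thus present in every library of both groups at a level far above the floor.

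Tac2 and Tac4 were at the limit of detection. Tac2 (chromosome 10, 127724478 to 127731768, ENSMUSG00000025400.11) had 1 count in control 1 and 2 counts in control 3 and none in the other 6 libraries. Tac4 (chromosome 11, 95261529 to 95269265, ENSMUSG00000020872.4) had 1 count in control 4 and none elsewhere. A difference between the groups was not detectable for either gene at this depth, and no fold is given.

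**Figure D1:**
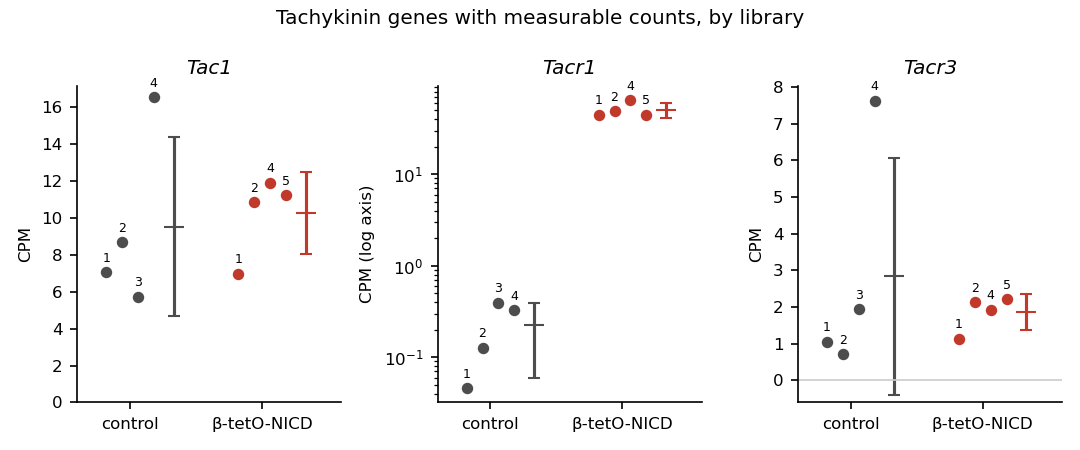
Points show the CPM of Tac1, Tacr1 (logarithmic axis) and Tacr3 in each control (grey) and β-tetO-NICD library (red), numbered by library, with the mean and SD (n = 4) beside them. The β-tetO-NICD libraries lie between 44.5 and 64.0 CPM for Tacr1, with every control at or under 0.396 CPM, whereas the groups overlap for Tac1 and Tacr3 and control 4 is the highest library of both.

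Among the receptors, Tacr1 was near the floor in controls and abundant in every β-tetO-NICD library. Tacr1 encodes the NK1 receptor and lies on chromosome 6 from 82402334 to 82560104 on the plus strand (ENSMUSG00000030043.11, 3 annotated transcripts). Its counts were 1, 3, 10 and 8 in controls 1 to 4, and 936, 1114, 1929 and 890 for β-tetO-NICD libraries 1, 2, 4 and 5. The corresponding levels were 0.0461, 0.127, 0.396 and 0.325 CPM for the controls and 44.5, 48.6, 64.0 and 44.8 CPM for the β-tetO-NICD libraries. No library of one group came near the range of the other, and the lowest β-tetO-NICD library was 112 times the highest control.

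The mean of Tacr1 was 0.223 ± 0.164 CPM (n = 4, SD) in controls and 50.5 ± 9.22 CPM (n = 4, SD) in β-tetO-NICD islets, a ratio of 226 and a log2 difference of 7.75 (SE 0.40). The control mean rests on 22 counts in all 4 libraries together, against 4869 counts in the β-tetO-NICD libraries. Controls 1 and 2 were at or under the floor of 3 counts, and controls 3 and 4 were above it. The size of the ratio is therefore set by few control reads. Within the β-tetO-NICD group the highest library was 1.44 times the lowest, and within controls 8.58 times. Tacr1 was the only one of the 6 genes whose groups did not overlap, and among all 15082 tested genes 2433, or 16.1%, did not overlap. It was also the only member past an adjusted p of 0.05 of edgeR's quasi-likelihood test, which 1020 of all tested genes, or 6.76%, passed, 632 of them (4.19%) higher in β-tetO-NICD islets. Since the family was chosen by this contrast, nothing is read from these counts.

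The log2 difference of Tacr1 was 7.79 in the 5 libraries with at most 1 Eif2s3y count. It was 7.64 in the 3 libraries with 1300 or more, where β-tetO-NICD library 5 stands alone against 2 controls. Notch1 and Tacr1 differed in their order among the β-tetO-NICD libraries. Per 1000 Notch1 counts, Tacr1 had 44.1, 36.8, 52.7 and 78.2 counts for β-tetO-NICD libraries 1, 2, 4 and 5. Library 5 had the lowest Notch1 level of the group (574 CPM, against 1008 to 1322 CPM in the others), while its Tacr1 level was close to those of libraries 1 and 2.

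NK1 receptors are known from endothelial cells, macrophages, smooth muscle and neurons, so markers of these cells were read beside Tacr1. The 8 macrophage genes summed to 153 to 206 CPM over the controls and 224 to 326 CPM over the β-tetO-NICD libraries, which did not overlap. In edgeR's test 1 of the 8 rose (C1qa, log2 change 0.95, adjusted p = 0.0273), where 4.19% of all tested genes did. Without C1qa the sums were 84.4 to 121 and 112 to 144 CPM and overlapped. The median log2 change of the list was 0.08, with C1qb at 0.75 (adjusted p = 0.113), C1qc at 0.41, Lyz2 at 0.07, Csf1r at 0.09, Cd68 at 0.00, Adgre1 at −0.38 and Mrc1 at −0.25. The 9 endothelial genes summed to 523 to 841 and 687 to 807 CPM and the 8 genes of stellate and smooth muscle cells to 204 to 684 and 354 to 422 CPM, both with overlap. In neither list did a gene pass edgeR's test or DESeq2, and 3 endothelial genes and 1 stellate and smooth muscle gene had an unadjusted p under 0.05 in edgeR. Which cells carried Tacr1 in β-tetO-NICD islets was not tested.

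The 250 bases before the start of Tacr1 in RefSeq (GRCm38.p6, plus strand, chr6:82402225-82402474) are shown because this gene carries the difference.
Tacr1 upstream: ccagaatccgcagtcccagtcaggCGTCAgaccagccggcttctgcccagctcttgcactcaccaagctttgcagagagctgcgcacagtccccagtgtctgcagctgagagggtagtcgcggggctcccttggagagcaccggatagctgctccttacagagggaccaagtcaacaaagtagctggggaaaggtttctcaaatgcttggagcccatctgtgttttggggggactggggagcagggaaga
Capitals mark a match to TGACG on the opposite strand, the shared part of cAMP response elements, which lies 226 to 222 bases before the start. GENCODE starts a noncoding Tacr1 transcript within this window. GC content of the window was 58.8%, and the median over all promoters was 52.4%. Matches on either strand were sought in the same window of all 6 genes and of 32851 RefSeq promoters. GTGGGAA, the site of the Notch partner Rbpj, was in none of the 6 and in 5.42% of all promoters, and its inner part TGGGAA was in Tac4 alone and in 21.6% of all. CACGTG, an E-box read by Hes and Hey proteins, was in Tac1 (61 to 56 bases before the start) and in 6.02% of all. GENCODE starts Tac1 within its RefSeq window, so that this match and the nearer TGACG match lie inside the annotated gene. TGACG was in Tacr1, Tacr3 and Tac1 and in 17.8% of all promoters, and none of these matches overlapped a CACGTG match. A match describes the letters of this window, and a missing match says only that they are not in it.

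The following 30-base windows are given for comparison of the matches in Tacr1, Tacr3 and Tac1, with the matched letters in capitals.
Tacr1 (chr6:82402236-82402265): agtcccagtcaggCGTCAgaccagccggct
Tacr3 (chr3:134828936-134828965): ttgcaacccgcgaCGTCAcggaagctgggg
Tac1 (chr6:7555005-7555034): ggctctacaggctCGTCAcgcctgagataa
Tac1 E-box (chr6:7554988-7555017): tggggagagtgtCACGTGgctctacaggct
The match of Tacr3 lies 58 to 54 bases and that of Tac1 43 to 39 bases before the start, and a further Tac1 match lies 197 to 193 bases before it. The matched letters were thus shared by the gene whose groups were apart (Tacr1) and by the pair whose groups overlapped (Tac1 and Tacr3).

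Genes next to Tacr1 did not pass the test that the rest of the table was put to. The nearest tested genes before it were Eva1a (309 kb away, log2 change 1.77, adjusted p = 0.0672), Mrpl19 (436 kb, 0.20, adjusted p = 0.448) and Gcfc2 (442 kb, −1.15, adjusted p = 0.0543). Those after it were Pole4 (58.9 kb, 0.39, adjusted p = 0.17), the hexokinase gene Hk2 (165 kb, 0.11, adjusted p = 0.828) and Sema4f (352 kb, −0.35, adjusted p = 0.303). Of these 6 genes 0 passed edgeR's test, 2 had an unadjusted p under 0.05, and 2 passed with DESeq2, which 18.2% of all tested genes passed. Eva1a was at a mean of 0.246 CPM in the control and 0.862 CPM in the β-tetO-NICD group, and Gcfc2 at 7.94 and 3.57 CPM, and the groups did not overlap for either gene, in opposite directions. Over the 3 nearest tested genes on each side of all 6 members, 2 of 36 (5.56%) passed, both higher, which is near the 6.76% of all tested genes. They were Neurog3, a transcription factor of endocrine progenitors 118 kb from Tacr2 (3.6 ± 1.17 against 11.9 ± 0.740 CPM, n = 4 each, SD; log2 change 1.72, adjusted p = 0.00438), and Samd14, 235 kb from Tac4 (log2 change 1.22, adjusted p = 0.00277).

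Across the 12754 tested genes with a mean of at least 50 counts, the profiles most like that of Tacr1 over the 8 libraries were those of Dio2, Lmntd1, Upk3a, Iyd and Rhov. Likeness was the root mean square difference of log2 CPM, each gene centred on its own mean and with a prior count of 2, and it was 0.55, 0.61, 0.86, 0.96 and 1.0 for these 5 genes. Dio2, a deiodinase that activates thyroid hormone, was at 0.102 ± 0.102 CPM (n = 4, SD) in controls and 19.7 ± 4.41 CPM (n = 4, SD) in β-tetO-NICD islets. Lmntd1 had at most 3 counts in any control and 11 to 19.3 CPM in β-tetO-NICD libraries. Upk3a, a uroplakin of the urothelium, was at 1.69 ± 1.14 and 732 ± 264 CPM (n = 4 each, SD), Iyd, a deiodinase that salvages iodide, at 0.418 ± 0.141 and 31.2 ± 7.52 CPM, and Rhov at 1.10 ± 0.451 and 89.7 ± 41.3 CPM. With a prior count of 0.5, 4 of these 5 genes were among the nearest, and Igfbpl1 took the place of Rhov.

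**Figure D2:**
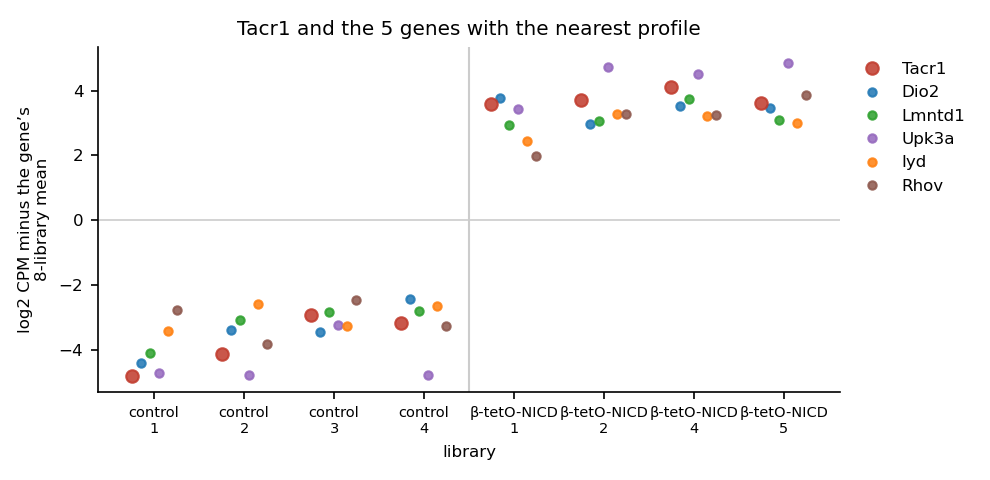
Each point is the log2 CPM (prior count 2) of a gene in 1 library minus the mean of that gene over the 8 libraries, for Tacr1 (large red points) and the 5 genes nearest to it, with controls left and β-tetO-NICD libraries right of the line. All 6 genes lie below 0 in every control and above 0 in every β-tetO-NICD library, which follows from choosing the 5 by likeness to Tacr1. In control 1 Tacr1 lies furthest from 0 of the 6 (−4.817). Rhov (−2.791) and Iyd (−3.415), at a distance of 1.0 and 0.96, lie closest to it there.

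Tacr2, the gene of the NK2 receptor (chromosome 10, 62252438 to 62265990, ENSMUSG00000020081.5), had 1 count in control 3, 1 count in β-tetO-NICD library 2 and none in the other 6 libraries. It stayed under the floor in all 8, so that the preferred receptor of neurokinin A was not distinguished from absence in either group and no fold is given.

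Tacr3, the gene of the NK3 receptor (chromosome 3, 134829007 to 134934579, ENSMUSG00000028172.5), was low in all libraries but control 4. Its counts were 23, 17, 49 and 188 in controls 1 to 4 and 24, 49, 58 and 44 for β-tetO-NICD libraries 1, 2, 4 and 5. In CPM these were 1.06, 0.718, 1.94 and 7.63 for the controls and 1.14, 2.14, 1.93 and 2.22 for the β-tetO-NICD libraries. The groups overlapped, and the range of the β-tetO-NICD libraries fell inside that of the controls. The means were 2.84 ± 3.24 CPM (n = 4, SD) and 1.86 ± 0.492 CPM (n = 4, SD), a log2 difference of −0.61 (SE 0.66). Control 4 sets that sign, since without it the log2 difference of Tacr3 was 0.58 (SE 0.42).

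Control 4 was the highest control for both Tac1 and Tacr3, at 2.31 and 6.16 times the mean of controls 1 to 3. It was also the highest control for 6 of 7 genes of autonomic and intrapancreatic neurons. How many of all tested genes were highest in control 4 was not counted. This count, and those of the sensory and glia genes below, therefore have no background to be set against. The ratio was 3.63 for Nos1 (neuronal nitric oxide synthase), 3.03 for Vip (vasoactive intestinal peptide), 2.29 for Chat (which makes acetylcholine) and 2.02 for Slc18a3 (which loads it into vesicles). For Dbh, which makes noradrenaline, it was 7.79 from 13 counts against 0 to 3 in the other controls. Phox2a, a regulator of autonomic neuron identity, had a ratio of 1.27 and Th, tyrosine hydroxylase, 0.958. The summed level of these 7 genes was 415 CPM in control 4, 115 to 235 CPM in the other controls and 73 to 154 CPM in β-tetO-NICD libraries.

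Sensory neurons are a known source of substance P in the pancreas. Of 8 marker genes of these neurons, 3 were highest in control 4 (Scn11a, P2rx3 and Prph, ratios 1.83, 1.44 and 1.58). Among the others, Scn10a had 0 counts in all 8 libraries, and Trpv1 and Calcb never had more than 3. The sensory genes summed to 19.7 to 34.7 CPM over the controls and 21.1 to 32.1 CPM over the β-tetO-NICD libraries. Of 5 glia genes, 1 was highest in control 4 (Foxd3, ratio 1.31). The part of nerve cell RNA in the levels of Tac1 and Tacr3 was not tested.

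**Figure D3:**
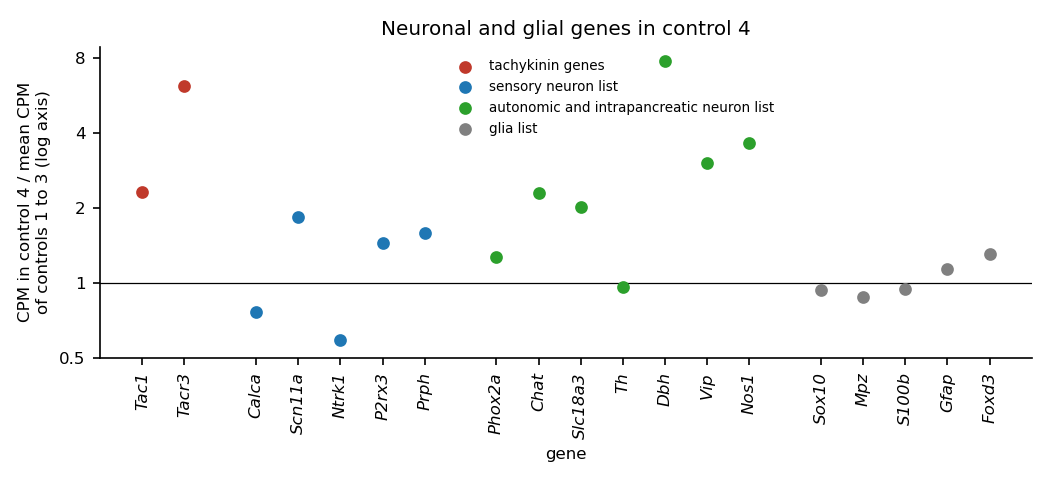
Each point is the CPM of a gene in control 4 divided by its mean CPM in controls 1 to 3, on a logarithmic axis, for Tac1 and Tacr3 and for listed neuronal and glial genes with more than 3 counts in a control. Tacr3 (6.16) and Tac1 (2.31) lie above 1 with 6 of 7 autonomic genes, while glia genes lie between 0.872 and 1.31.

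Between the groups, 2 genes of the neuronal lists passed edgeR's test, which 6.76% of all tested genes passed. Th fell from 41.9 to 15 CPM (log2 change −1.48, adjusted p = 0.000681), the only one of the 6 tested autonomic genes to pass. Calca, the precursor of calcitonin and of the sensory peptide CGRP, rose from 0.649 to 2.99 CPM (log2 change 2.18, adjusted p = 0.0346), the only one of the 5 tested sensory genes to pass. Whether Th and Calca RNA came from nerve cells or from other cells of the islets was not tested.

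The profiles nearest to Tac1 over the 8 libraries were C1qtnf7, Cx3cr1, Eno1, Dkk3 and Igsf1, at a distance of 0.21 to 0.24. Those nearest to Tacr3 were Npy, St3gal4, Arhgap36, Gm4723 and Ano7, at 0.44 to 0.54. In all 10 genes control 4 was the highest control, as for Tac1 and Tacr3 themselves. The genes were chosen for likeness to profiles that peak in control 4, so this follows from the choice and is not a separate result. Npy, the gene of neuropeptide Y, was at 87.4 CPM in control 4, at 25.8 to 41.7 CPM in the other controls and at 36.6 to 48.9 CPM in β-tetO-NICD libraries.

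Levels of different members were compared only per length, as CPM per kb of the longest coding transcript (5021 bases for Tacr1, 3762 for Tacr3 and 1230 for Tac1). In controls the order was Tac1 (mean 7.73 CPM per kb, range 4.66 to 13.5), Tacr3 (0.754, range 0.191 to 2.03) and Tacr1 (0.0445, range 0.00919 to 0.0788), and neighbours in this order did not overlap. In β-tetO-NICD islets the order was Tacr1 (10.1 CPM per kb, range 8.86 to 12.8), Tac1 (8.34, range 5.68 to 9.69) and Tacr3 (0.493, range 0.303 to 0.589). Tacr1 and Tac1 overlapped there, so their order is not settled beyond the spread. Tac1 also has a noncoding transcript of 1975 bases, and with that length its β-tetO-NICD libraries lay at 3.54 to 6.04 CPM per kb, under those of Tacr1. Tacr2, Tac2 and Tac4, under the floor in every library, have no place in the order.

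**Figure D4:**
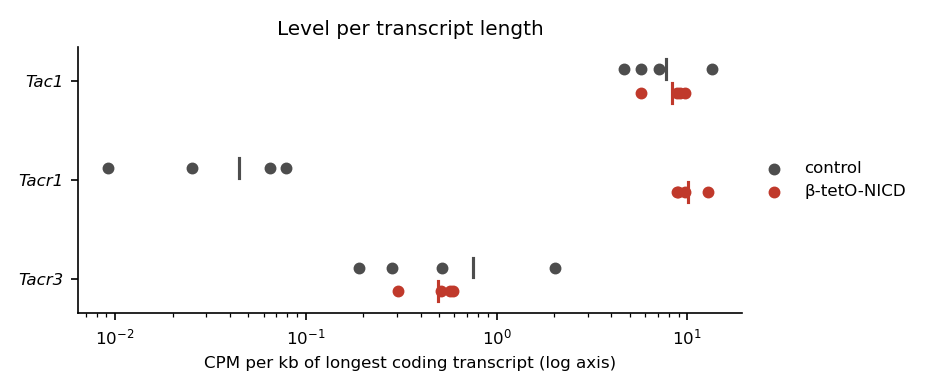
Points show CPM per kb of the longest coding transcript (logarithmic axis) in each of the 4 controls (grey) and 4 β-tetO-NICD libraries (red), with a bar at the mean. Tacr1 is the lowest of the 3 genes in controls (0.0445) and lies beside Tac1 in β-tetO-NICD islets (10.1 and 8.34), while for Tac1, and likewise for Tacr3, the control and β-tetO-NICD ranges overlap.

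The machinery around tachykinin signaling was read from a list of 38 genes that make, cut or transmit the peptides, of which 36 were tested. Of these, 1 rose and 6 fell, or 19.4% past the threshold against 6.76% of all tested genes, and 16.7% lower against 2.57%. The list was written with earlier results of these data known, so these and the following shares describe it and do not test it. The median log2 change of the list was −0.20 and that of all tested genes 0.00. There were 12 genes with a positive and 24 with a negative estimate, where all tested genes had 7548 and 7534. The groups did not overlap in 10 of the 36 (27.8%, against 16.1% of all tested genes). The list is longer in transcript length than the table (median longest transcript 4770 against 3359 bases), and libraries differed in their trend with length across 14655 genes. The Spearman correlation with length was 0.418, 0.467, −0.174 and 0.497 for controls 1 to 4 and 0.446, −0.521, −0.36 and −0.515 for β-tetO-NICD libraries 1, 2, 4 and 5, so that it was positive in 3 of 4 controls and negative in 3 of 4 β-tetO-NICD libraries. With an offset for that trend 10 of the 34 pathway genes with a known length passed (29.4%, against 10.5% of all genes in that fit), 4 higher and 6 lower, and the 7 genes named next were among them. The offset brought the log2 change of Prkca from −1.24 to −0.78, of Grk5 from −1.10 to −0.80, of Plcb4 from −0.99 to −0.78, of Pcsk1 from −1.07 to −0.84 and of Dpp4 from −1.43 to −1.22, while Prkcb was at −0.94 and Gna14 at 1.42.

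Among the 6 genes of precursor processing, 1 fell. Pcsk1, the prohormone convertase PC1/3, went from 547 ± 168 CPM (n = 4, SD) to 261 ± 64.9 CPM (n = 4, SD), a log2 change of −1.07 (SE 0.27, adjusted p = 0.0446). Controls lay between 348 and 760 CPM and β-tetO-NICD libraries between 175 and 331 CPM, without overlap. The related convertase Pcsk2 was at 3612 ± 202 and 3390 ± 163 CPM (log2 −0.09, adjusted p = 0.741). Cpe and Pam, which trim and amidate peptides, had log2 changes of 0.47 and 0.53 (adjusted p = 0.175 and 0.11), and the convertase inhibitor gene Pcsk1n 1.19 (adjusted p = 0.0686).

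Among 6 peptidases that can cut tachykinins, 1 fell. Dpp4, which removes dipeptides from the N terminus of substance P, was at 94.7, 94.2, 76.5 and 108 CPM in controls 1 to 4 and at 58.5, 21.1, 30.4 and 28.1 CPM for β-tetO-NICD libraries 1, 2, 4 and 5. The groups did not overlap, and library 1 was closest to the controls (log2 change −1.43, SE 0.29, adjusted p = 0.0199). Mme, neprilysin and the classical substance P peptidase, was near the floor at 0.498 ± 0.286 and 0.742 ± 0.618 CPM (log2 0.55, adjusted p = 0.536). Prep (−0.64, adjusted p = 0.0605), Ace (−0.57, adjusted p = 0.18), Ece1 (−0.22, adjusted p = 0.467) and Ece2 (−0.06, adjusted p = 0.761) did not pass.

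Of the 9 genes of G proteins and phospholipase Cβ, 1 rose and 1 fell. Gna14, a member of the Gq family, was at 2.26, 2.70, 1.90 and 1.62 CPM in controls 1 to 4 and at 4.42, 7.07, 4.55 and 6.45 CPM for β-tetO-NICD libraries 1, 2, 4 and 5, all higher than the controls (log2 change 1.40, SE 0.26, adjusted p = 0.0145). The main Gq family genes Gnaq and Gna11 did not pass (log2 −0.53 and −0.05, adjusted p = 0.132 and 0.83). Plcb4 fell from 44.5 ± 5.79 to 22.4 ± 9.01 CPM (n = 4 each, SD; log2 change −0.99, SE 0.25, adjusted p = 0.0454). Plcb1 and Plcb3 had log2 changes of −0.54 and −0.60 (adjusted p = 0.144 and 0.0741).

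Of the 7 genes of IP3 receptors and protein kinase C, 2 fell. Prkca was at 81.3, 78.3, 60.7 and 96.5 CPM in controls 1 to 4 and at 50.8, 29.0, 30.2 and 24.3 CPM for β-tetO-NICD libraries 1, 2, 4 and 5, without overlap (log2 change −1.24, SE 0.24, adjusted p = 0.0176). Prkcb went from 60.0 ± 11.4 to 30.8 ± 10.1 CPM (n = 4 each, SD; log2 change −0.96, adjusted p = 0.0447). The calcium channel genes Itpr1, Itpr2 and Itpr3 had log2 changes of −0.39, −0.75 and −0.77 and did not pass (adjusted p = 0.479, 0.175 and 0.126).

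Of the 8 genes that shut off receptor signaling, 1 fell. Grk5, a kinase that phosphorylates active receptors, went from 29.7 ± 4.95 to 13.9 ± 4.77 CPM (n = 4 each, SD; log2 change −1.10, SE 0.24, adjusted p = 0.0261). Grk3 (in the table under its older symbol Adrbk2) had a log2 change of −0.89 (adjusted p = 0.064), and Rgs4, which speeds the inactivation of Gq, 0.94 (adjusted p = 0.0502). The arrestin genes Arrb1 and Arrb2 had log2 changes of −0.17 and 0.43 (adjusted p = 0.594 and 0.251). Mrgpra1 and Mrgprb2, further receptors of substance P, had 0 counts in all 8 libraries. Mast cells, on which Mrgprb2 is known, had 6 of 8 marker genes at 3 counts or fewer in every library, with Cma1 at 0. The remaining pair, Kit and Hdc, which other cells also express, had 126 to 312 and 111 to 228 counts.

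The calls in this list depended on the libraries included. With each library left out in turn, Gna14 passed in 7 of 8 fits, Prkca in 5, Dpp4 in 4, Pcsk1, Prkcb and Grk5 in 2 each and Plcb4 in 1. Each of the 7 genes kept its sign in all 20 alternatives. Without β-tetO-NICD library 2 edgeR called 0 of the 36, with 13 at an unadjusted p under 0.05 and 9 called by DESeq2, and without β-tetO-NICD library 1 it called 18. It called 3 without control 1, control 2 or β-tetO-NICD library 5, 2 without control 4, 1 without β-tetO-NICD library 4 and 7 without control 3. The calls over all tested genes moved with these counts, at 2.14% without β-tetO-NICD library 2, 33.2% without β-tetO-NICD library 1 and 2.52% to 5.78% in the other 6 fits. Those are edgeR's shares, and shares over all genes for the unadjusted p and for DESeq2 were not counted in these fits. Tacr1 kept a log2 difference of 7.46 to 8.17 in the same 8 fits.

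**Figure D5:**
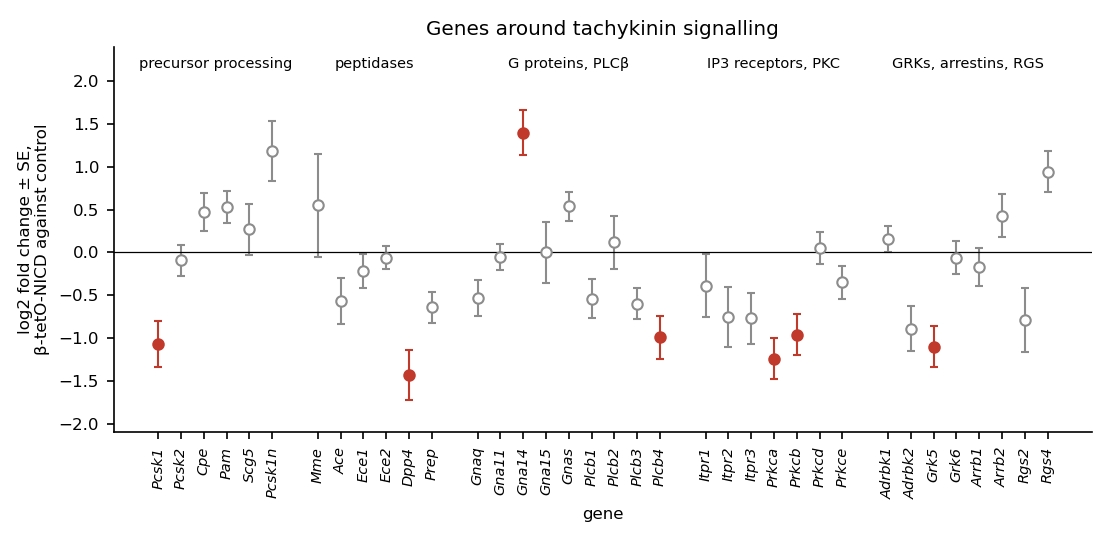
Points show the log2 change of β-tetO-NICD against control islets with its SE for the 36 tested genes around tachykinin signaling, grouped by role, with filled red points for an adjusted p under 0.05. Gna14 (1.40) is the only filled point above 0, and Pcsk1, Dpp4, Plcb4, Prkca, Prkcb and Grk5 lie between −0.96 and −1.43.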

How the data were processed

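The authors made stranded poly(A) libraries of islet RNA, assigned reads to GRCm38 transcripts with Kallisto and deposited whole-number counts per gene symbol, not normalized. The Kallisto version, the annotation release and how estimated counts became whole are not given in the sources used here. A deposited table of the authors' own comparison (log2 fold changes, mean expression, t, p values, log odds) was not used. Of the 8 columns, 6 matched the label of 1 mouse by name, and β-tetO-NICD columns 4 and 5 matched only the group. No other sample column was present (0 unused). The lowest chi-square between 2 libraries of a group was 31.5 per gene with at least 20 counts, so each library counted as 1 replicate.

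The test was that of edgeR 4.0.16 under R 4.3.3 (TMM, quasi-likelihood test, all 8 libraries, no covariate). Testing was limited to genes that reached 10 counts in 4 or more libraries, p values were adjusted over all of them by the Benjamini-Hochberg method, and the threshold was 0.05. SEs were derived from the estimate and its F statistic. The fits were first tested on simulated data. Named were the 6 members, Notch1 and Hes1, pathway genes past the threshold, the 5 nearest profiles to members with a mean of at least 20 counts in a group, the 3 nearest tested genes on each side of a member, and marker genes at 0 or highest in their list, and other genes named beside these were chosen after their values were seen. The members and lists were chosen with earlier results of these data known. Grk2 and Grk3 were read as Adrbk1 and Adrbk2. Coordinates and lengths are from GENCODE M21 (2.83% of tested genes had no length) and promoters from RefSeq. Alternatives included DESeq2 1.42.0, limma-voom (limma 3.58.1), other normalizations and filters, an acinar score, a replicate block, a split by Eif2s3y and leaving out each library. An offset for transcript length was added after seeing the data. Some marker genes of the lists are not reported here and were left out of their counts and sums.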

Additional observations from a re-analysis of the deposited data

Results flagged for a closer look

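Over 66 sets of 4 values, each a gene or marker sum in 1 group, the distance of the highest or lowest library from its neighbour was divided by the spread of the set. In 4 sets it exceeded the critical share of 0.829, where chance gives about 1 in 20, or 3.3. None of the 4 was a tachykinin or receptor gene. Lmntd1 was highest in β-tetO-NICD library 4 (19.3 CPM, the next library at 12.1 CPM), with a gap of 0.865 of the range. Upk3a was highest in control 3 (3.40 CPM, the next at 1.15 CPM), with a gap of 0.975. The summed acinar genes were highest in control 1 (71900 CPM, the next at 37600 CPM), with a gap of 0.943. In the β-tetO-NICD libraries the same sum was 109100, 51380, 29810 and 54430 CPM in libraries 1, 2, 4 and 5, so that library 1 was the highest of all 8. The summed duct genes were lowest in control 4 (229 CPM, the next at 308 CPM), with a gap of 0.847. Of the genes with profiles nearest to Tacr1, Lmntd1 and Upk3a were thus each set apart in 1 library. Control 3 also had the most Tacr1 counts of the controls (10), and control 4 had 8.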

How the results depend on the processing

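Tacr1 was higher in β-tetO-NICD islets in all 20 alternatives, by 7.46 to 8.97 on the log2 scale, and the filter of at least 10 counts in all 8 libraries left it out. Its control level, 22 counts in all, limits how closely the ratio is known. Tac1 and Tacr3 had no stable sign. Tac1 was positive in 18 of 21 alternatives and Tacr3 in 3 of 21. The log2 difference ranged from 7.46 to 8.17 for Tacr1, −0.92 to 0.58 for Tacr3 and −0.07 to 0.53 for Tac1 with each library left out in turn, and Tacr3 turned positive only without control 4. Over the same fits 319 to 4954 genes differed (1020 with all libraries, 319 without β-tetO-NICD library 2, 4954 without library 1, 374 and 603 without libraries 4 and 5, and 496, 503 and 430 without controls 1, 2 and 4), and 0 to 18 pathway genes passed (7 with all). Causes of these shifts were not tested.

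DESeq2 gave 2739 genes (18.2% of those tested) and 14 pathway genes (38.9% of the 36). The acinar score gave 1708 genes (11.3%) and 10 pathway genes (27.8%), and the length offset 1538 genes (10.5%). The 5 libraries without Eif2s3y counts gave 122 genes, 0 pathway genes (8 at an unadjusted p under 0.05, 5 by DESeq2) and a Tac1 log2 difference of 0.64. The 3 libraries with them gave 6735 genes and 21 pathway genes, with the lone β-tetO-NICD library assumed to vary like the controls. A replicate block was possible only over libraries 1 and 2 of each group. It gave 595 genes (3.95% of those tested), 1 pathway gene (Dpp4, 2.78% of the 36), 8.97 for Tacr1 and 0.84 for Tacr3. Deviations of same-numbered libraries correlated at 0.276 and −0.09. The crossed pairs, control 1 with β-tetO-NICD library 2 and control 2 with β-tetO-NICD library 1, were at −0.09 and 0.163. So few pairs cannot settle whether the numbers stand for a pairing.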
